A study of Danio rerio with 13 samples.

Results

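The genes described here are *her2*, *her6*, *her8a*, *her9*, *hey1*, *hey2* and *heyl*, the members of the zebrafish hairy and Enhancer-of-split-related family that were chosen by name and that have 1 entry each in the table of 27911 genes. The nearly identical *her4* and *her15* copies were left out of the 7, because reads may be divided among them. Of the 7 genes, 6 had a mean RPKM (reads scaled by gene length and library size) of at least 1 over double-positive libraries, and *heyl* did not.

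Cells were sorted from dissociated embryos that all carried *fli1a*:EGFP and *sox10*:DsRed, and cDNA of 13 sorted populations was sequenced, with 1 library of pooled embryos for each. DsRed is driven by *sox10*, which is active in neural crest cells (NCCs) and in the otic vesicle, and EGFP by *fli1a*, which is active in endothelium, some blood cells and the crest of the pharyngeal arches. The 11 double-positive libraries are therefore enriched for arch NCCs. The perturbed populations, all at 36 hpf, were *hsp70I*:Gal4; *UAS*:NICD embryos, wild types given 10 µM DBZ between 24 and 36 hpf, *jag1b*-/- mutants, *edn1*-/- mutants, and *hsp70I*:Gal4; *UAS*:Edn1 embryos. The other double-positive populations were wild types at 20, 28 and 36 hpf and, at 36 hpf, the wild-type siblings of the *jag1b* mutants, *hsp70I*:Gal4 embryos and *UAS*:Edn1 embryos. At 36 hpf, *sox10*:DsRed-only and *fli1a*:EGFP-only cells of wild types were also sequenced.

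The *hsp70I* promoter drives Gal4 in all cells, and both overexpression populations and their *hsp70I*:Gal4 and *UAS*:Edn1 controls were heat-shocked at 40 °C between 20 and 24 hpf. Mutation, drug and transgene acted on whole embryos, not on arch NCCs alone. No library of DBZ vehicle, of *edn1* siblings or of *UAS*:NICD alone was used here, so that DBZ and its vehicle cannot be told apart. The *edn1* mutants were picked by arch shape at about 34 hpf, and *jag1b* and transgenic embryos were genotyped from tail biopsies at 24 hpf. Embryos for 36 hpf were moved at 27 hpf to 22 °C, so that late stage and lower temperature cannot be told apart either. The paper reports sequencing on both HiSeq and NextSeq machines, with reads of different lengths. Which machine served which library was not examined here, and its part in differences between libraries was not tested.

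Notch receptors are activated by Delta and Jagged ligands on neighbouring cells. γ-secretase, which DBZ inhibits, then frees the Notch intracellular domain (NICD), which enters the nucleus, binds RBPJ and switches on target genes. *her* and *hey* genes are the best known of these targets. They encode basic helix-loop-helix repressors that hold cells in an undifferentiated state and some of them limit their own transcription. In the zebrafish face, Jagged-Notch signaling acts in dorsal arch NCCs and Edn1, a secreted peptide, in ventral ones.

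Each population had 1 library, so there are no replicates, no tests and no standard deviations, and every ratio compares libraries. Each perturbed library was set against its main control and against a second one, *jag1b* siblings or wild types for the unshocked libraries and *UAS*:Edn1 embryos for the shocked ones. A gene was counted as changed at 1.5-fold or more, and the members' count is given beside the share changed by the same rule among the 11399 genes that passed this minimum level. Intervals are exact 95% counting intervals on whole reads recovered from the RPKM of *her2*, *her8a*, *hey1*, *hey2* and *heyl*; they cover counting error only, and none could be given for *her6* and *her9*. In sorted bulk cells, fewer cells of a type and less RNA per cell cannot be told apart.

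The depth of the libraries relative to that of wild types at 36 hpf was 0.687 to 1.23. The targeted genes followed the labels. *jag1b* had 3.42 RPKM in *jag1b* mutants, against 18.9 RPKM in their siblings, and *edn1* had 6.31 RPKM with Edn1 overexpression, against 0.502 RPKM in *hsp70I*:Gal4 controls. In *edn1* mutants *edn1* was listed at 0, but wild types had only 0.0488 RPKM, too little to check that label. *notch1a* had 31.0 RPKM with NICD, against 3.44 RPKM in *hsp70I*:Gal4 controls, and since the transgene encodes part of Notch1a its reads cannot be told apart from those of the gene itself. All 7 arch crest markers examined were present in every double-positive library at 36 hpf. Their summed level was 323 RPKM with NICD and 569 to 746 RPKM in all other perturbed and control libraries. The list holds *barx1*, *hand2* and *dlx5a*, which the paper describes as repressed by Notch signaling.

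The 6 expressed genes fell into tiers of abundance in wild-type arch NCCs at 36 hpf. *her6*, the relative of mammalian Hes1, stood at 180 RPKM, followed by *hey1* at 97.8 RPKM, *her9* at 89.7 RPKM and *her2* at 13.5 RPKM. *hey2*, known as gridlock for its role in the formation of the aorta, had 3.97 RPKM, and *her8a* had 2.75 RPKM. RPKM is corrected for gene length, so these levels can be compared between genes, but *hey1* and *her9* were closer to each other than the 4 control libraries were for either gene. *heyl* was nearly silent. It had 16 reads with NICD, 9 reads at 20 hpf, 7 reads in *fli1a*-only cells, 2 reads each in *jag1b* mutants and *hsp70I*:Gal4 controls, and 0 reads elsewhere.

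**Figure D1:**
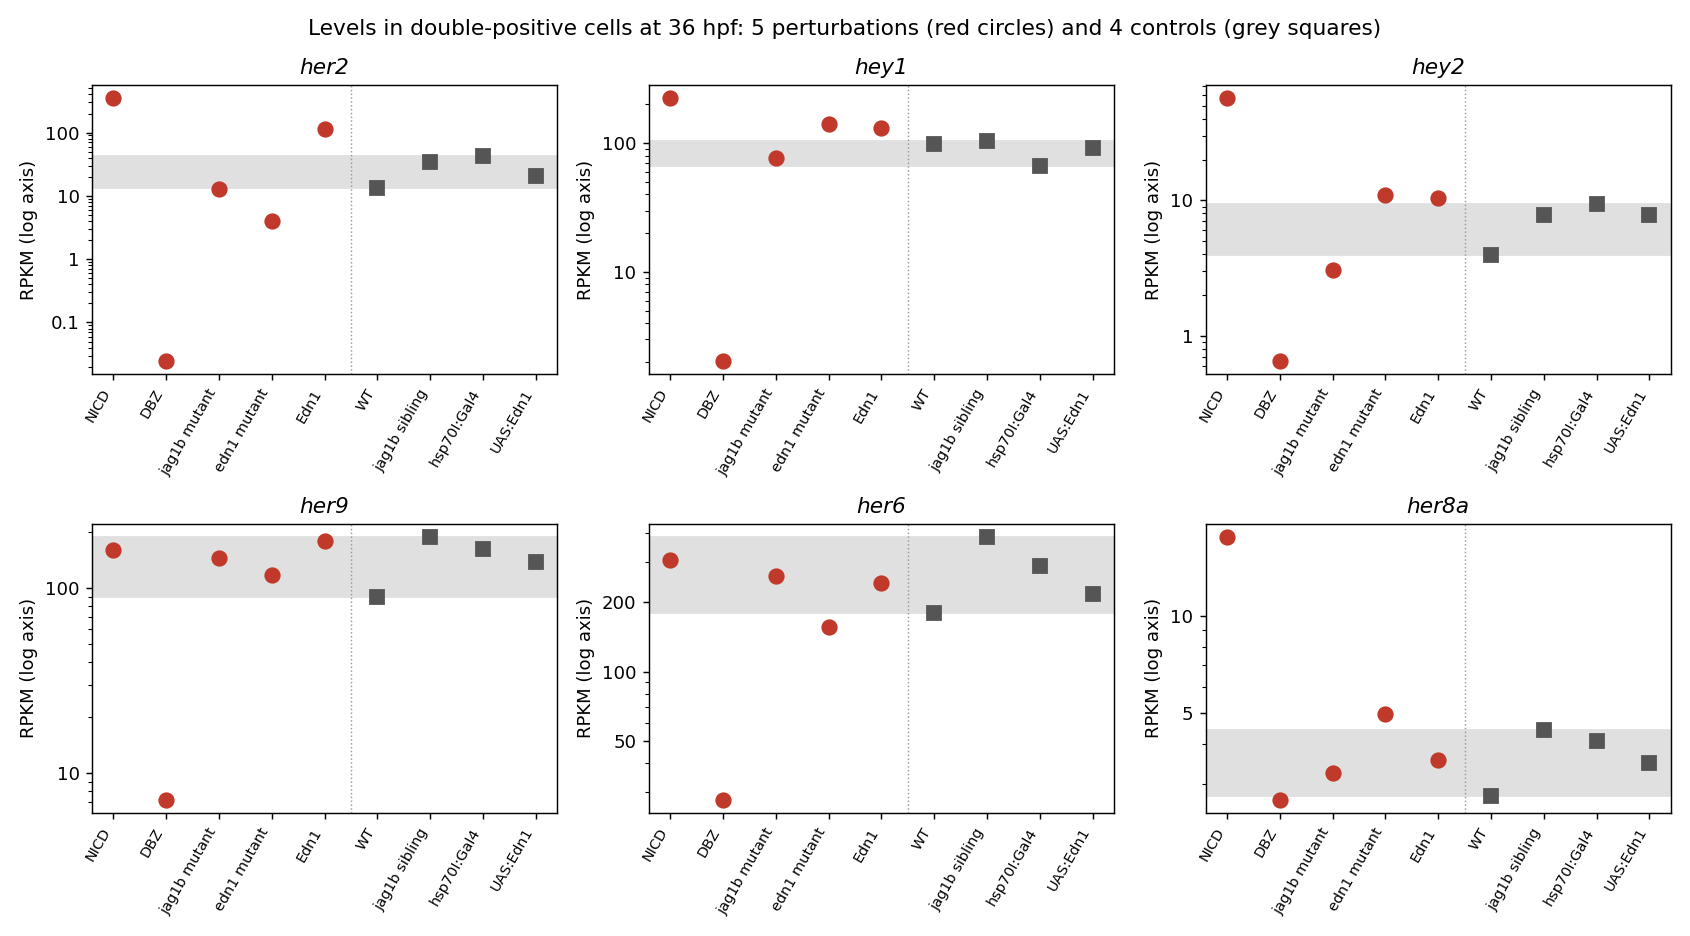
RPKM (log axis) of the 6 expressed genes in the 9 double-positive libraries at 36 hpf, 1 point per library, with the 5 perturbations as red circles and the 4 controls as grey squares; the grey band spans the controls. DBZ lies far below the band for every gene but *her8a*, and NICD lies above it for *her2*, *hey1*, *hey2* and *her8a*.

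The control libraries themselves differed, which sets the scale for all that follows. *her2* had 13.5 RPKM in wild types, 34.2 RPKM in *jag1b* siblings, 42.6 RPKM in *hsp70I*:Gal4 controls and 20.6 RPKM in *UAS*:Edn1 controls, a range of 3.15-fold. The ranges were 2.37-fold for *hey2*, 2.14-fold for *her6*, 2.11-fold for *her9*, 1.61-fold for *her8a* and 1.56-fold for *hey1*. Between the heat-shocked controls *her2* was 2.07-fold lower in *UAS*:Edn1 than in *hsp70I*:Gal4 embryos, as 6.83% of all genes were by 1.5-fold or more. The wild-type library was the lowest of the 4 for every one of these genes but *hey1*. In *jag1b* siblings, which carry wild-type *jag1b*, 5 of the 6 were 1.5-fold or more above wild types, against 12.7% of all genes, and the median ratio of the 6 was 2.03, against 0.924 for all genes. Notch pathway genes outside the family varied. *nrarpa*, a Notch-induced feedback inhibitor, had 68.3 RPKM in *jag1b* siblings and 12.0 RPKM in wild types. *adam10b*, with 6.73 and 2.53 RPKM, and *maml1*, with 3.77 and 1.39 RPKM, were also higher in siblings. Others were lower in siblings, among them *rfng*, with 2.23 and 4.55 RPKM, and *dtx4*, with 2.61 and 4.71 RPKM. So were *aph1b*, with 8.22 and 14.0 RPKM, and *psenen*, with 11.1 and 18.6 RPKM. *jag1b*, with 18.9 and 19.3 RPKM, *notch3*, with 5.85 and 4.82 RPKM, and *dtx1*, with 4.93 and 5.34 RPKM, differed by less than 1.5-fold. Markers of other cells also differed, with summed levels in siblings and wild types of 211 and 81.8 RPKM for 4 erythroid markers, 95.0 and 23.6 RPKM for 5 macrophage and neutrophil markers, 32.7 and 20.1 RPKM for 7 neuron and glia markers, and 107 and 359 RPKM for 5 muscle markers. Their part in the difference was not tested.

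Inhibition of γ-secretase with DBZ, which asks how far these genes depend on this enzyme at 24 to 36 hpf, was accompanied by lower levels of 5 of the 6 genes. The paper cautions that such inhibitors act on pathways besides Notch. Effects of DBZ through Notch and through other pathways cannot be told apart here. *her2*, *hey1*, *her9*, *her6* and *hey2* were each at least 1.5-fold lower than in wild types, against 15.2% of all genes, and no member was higher, against 14% of all genes. The same 5 were lower than in both unshocked controls, where the share of all genes was 3.87%, and below all 4 controls, where it was 2.7%. The median ratio of the 6 genes to wild types was 0.111, against 0.9497 for all genes.

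*her2* was close to absent with DBZ. It had 0.0246 RPKM, or 1 read, in DBZ-treated embryos, against 13.5 RPKM, or 527 reads, in wild types and 34.2 RPKM in *jag1b* siblings. That is 549-fold lower than in wild types, with a counting interval of 98.1- to 21732-fold because it rests on 1 read. Both single-positive populations had far more *her2*, with 8.44 RPKM in *fli1a*-only cells and 51.8 RPKM in *sox10*-only cells. They came from untreated wild types, so *her2* in such cells with DBZ is not known.

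*hey1* was the next most affected. It had 2.04 RPKM with DBZ, against 97.8 RPKM in wild types and 104 RPKM in siblings, which was 48.0-fold (43.2 to 53.5) and 51.1-fold lower. It was also the gene for which the 2 control libraries differed least, by 1.06-fold. *her9*, which like *her6* restrains neuronal differentiation in the early zebrafish nervous system, had 7.17 RPKM with DBZ, against 89.7 RPKM in wild types and 189 RPKM in siblings. It was 12.5-fold lower than in wild types and 26.4-fold lower than in siblings.

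*her6* and *hey2* differed less. *her6* kept 27.7 RPKM with DBZ, against 180 RPKM in wild types and 385 RPKM in siblings, and was 6.50-fold and 13.9-fold lower. *hey2* had 0.650 RPKM with DBZ, against 3.97 RPKM in wild types and 7.73 RPKM in siblings, and was 6.10-fold (4.65 to 8.12) and 11.9-fold lower. *her6* thus made up 68.8% of the summed RPKM of the 7 genes with DBZ, against 46.4% in wild types, while that sum was 40.3 RPKM with DBZ, against 388 RPKM in wild types.

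*her8a* differed from the other genes. It had 2.68 RPKM with DBZ, against 2.75 RPKM in wild types, a ratio of 0.975 (0.852 to 1.12), and the counting interval included 1. Against *jag1b* siblings, at 4.42 RPKM, it was 1.65-fold lower (1.46 to 1.86), which is close to the 1.61-fold range of the control libraries.

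Markers of other cells also differed with DBZ. Of the 7 arch crest markers none was 1.5-fold from both controls, and their summed level was 642 RPKM with DBZ, against 569 RPKM in wild types and 740 RPKM in siblings. Of the 6 expressed neuron and glia markers 2, *fabp7a* and *sox3*, were lower than in both controls, and the list summed to 11.9 RPKM, against 20.1 and 32.7 RPKM. Of the 4 otic markers *stm* and *otomp* were lower, both under 1 RPKM in all 3 libraries. *otomp* had 0.0367 RPKM with DBZ, against 0.239 and 0.168 RPKM, and the list summed to 7.28 RPKM, against 7.15 and 5.29 RPKM. Of the 4 erythroid markers *gata1a*, which was at 0 with DBZ, and both entries of *hbbe1.1* were lower than in both controls, and the list summed to 40.2 RPKM, against 81.8 and 211 RPKM. Of the 4 epidermal markers *epcam* was higher than in both controls, and the list summed to 74.7 RPKM, against 23.5 and 65.9 RPKM. The part of these differences in the *her* and *hey* values was not tested.

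Overexpression of NICD, which asks which genes respond to excess Notch activity, was accompanied by higher levels of a set of genes that only partly overlapped those lower with DBZ. *her2*, *hey2*, *her8a* and *hey1* were at least 1.5-fold higher than in *hsp70I*:Gal4 controls, 4 of the 6 genes, against 16.2% of all genes. No member was lower, against 7.22% of all genes. The same 4 were higher than in both heat-shocked controls, with 8.11% of all genes, and above all 4 controls, with 4.92%. The median ratio of the 6 was 3.80, against 1.08 for all genes.

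*her2* had 350 RPKM with NICD, against 42.6 RPKM in *hsp70I*:Gal4 controls and 20.6 RPKM in *UAS*:Edn1 controls, and was 8.22-fold (7.84 to 8.62) and 17.0-fold higher. It was the most abundant of the 7 genes in this library, with 31.5% of their summed RPKM, against 7.42% in *hsp70I*:Gal4 controls. *hey2* had 56.9 RPKM with NICD, against 9.41 and 7.78 RPKM in the 2 heat-shocked controls, and was 6.05-fold (5.66 to 6.47) and 7.31-fold higher.

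*her8a*, which was near its wild-type level with DBZ, had 17.5 RPKM with NICD, against 4.08 RPKM in *hsp70I*:Gal4 controls and 3.49 RPKM in *UAS*:Edn1 controls. It was 4.30-fold (3.97 to 4.66) and 5.02-fold higher, and this level was the highest of all 13 libraries for the gene. *hey1* had 224 RPKM with NICD, against 66.8 and 91.7 RPKM, and was 3.35-fold (3.29 to 3.42) and 2.44-fold higher. *heyl* had 16 reads with NICD and 2 reads in *hsp70I*:Gal4 controls, a ratio of 10.4 with a wide counting interval of 2.45 to 93.4. Against *UAS*:Edn1 controls, which had 0 reads, it was at least 4.50-fold higher, counted from a floor of 3 reads per library.

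*her6* and *her9*, which were 6.50-fold and 12.5-fold lower than wild types with DBZ, were within 1.5-fold of both controls with NICD. *her6* had 304 RPKM with NICD, against 288 RPKM in *hsp70I*:Gal4 controls and 218 RPKM in *UAS*:Edn1 controls, ratios of 1.05 and 1.39. *her9* had 160 RPKM with NICD, against 163 and 138 RPKM, ratios of 0.980 and 1.16. Both lay inside the range of the 4 control libraries.

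In the NICD library markers of other cells also differed. Of the 6 expressed neuron and glia markers 4 (*fabp7a*, *foxd3*, *sox3* and *sox2*) were higher than in both controls and *elavl3* was lower. *neurod1* had 3.44 RPKM, against 4.55 and 4.06 RPKM. The list, with *mbpa* at 0, summed to 300 RPKM, against 69.5 and 49.0 RPKM. Of these sums *fabp7a* made up 228 RPKM with NICD, against 40.8 and 22.6 RPKM. Of the otic markers *stm* and *otomp* were higher than in both controls, and *oc90* had 5.58 RPKM, against 8.17 and 10.2 RPKM. The list of 4 summed to 31.9 RPKM, against 14.4 and 12.5 RPKM. Like *her2*, *hey1* and *hey2*, the markers *fabp7a*, *sox3*, *stm* and *otomp* were also lower with DBZ than in both unshocked controls. Of the 7 arch crest markers 5 (*sox9a*, *barx1*, *hand2*, *twist1a* and *dlx5a*) were lower than in both controls. *dlx2a* had 127 RPKM, against 145 and 190 RPKM, and *prrx1a* had 80.3 RPKM, against 82.5 and 102 RPKM. *egfl7*, *lyz*, *acta1b* and *epcam* were higher and *dll4* was lower. *sox10* itself had 73.4 RPKM with NICD, against 16.4 RPKM in *hsp70I*:Gal4 controls and 9.90 RPKM in *UAS*:Edn1 controls. It had 161 RPKM in *sox10*-only cells. The part of these differences in the *her* and *hey* values was not tested. The levels of the 4 higher genes with NICD were above those in cells of either transgene alone. Those cells came from wild types without NICD or heat shock, so the level of these genes in such cells with NICD is not known. *her2* was 6.77-fold, *her8a* 6.03-fold, *hey1* 5.82-fold and *hey2* 11.6-fold higher with NICD than in *sox10*-only cells, whose neuron and glia markers summed to 789 RPKM. They were 41.5-, 6.29-, 7.08- and 14.5-fold higher with NICD than in *fli1a*-only cells.

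**Figure D2:**
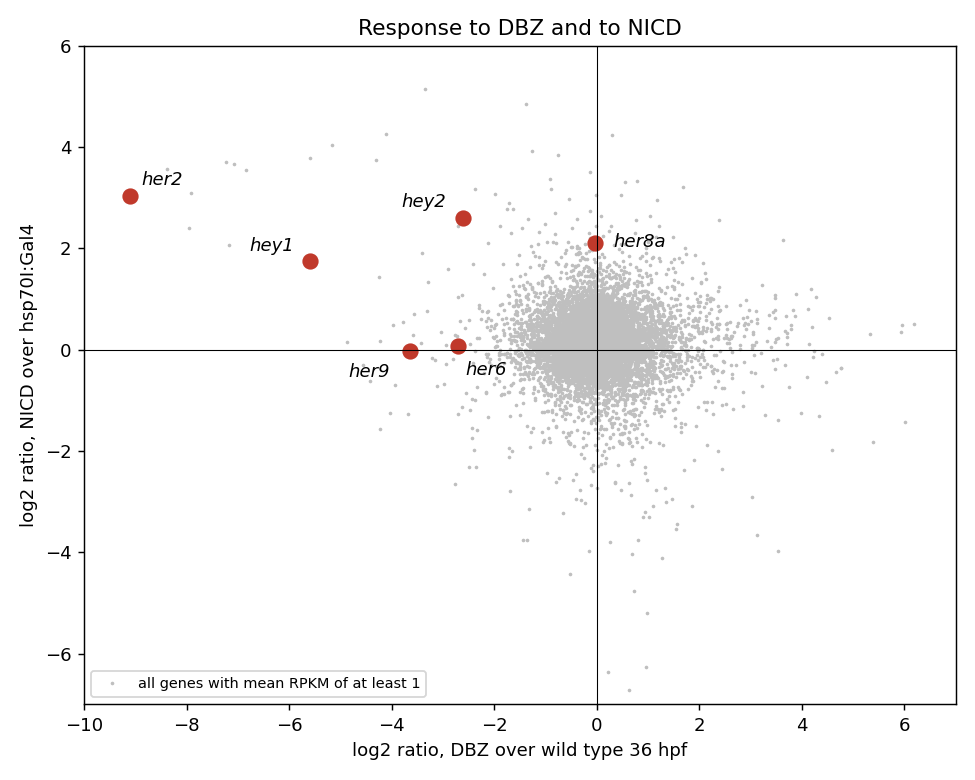
Each point is a gene, with the log2 ratio of RPKM in DBZ-treated over wild-type embryos on the x axis and in NICD over *hsp70I*:Gal4 embryos on the y axis; red points are the 6 genes and grey points all genes that passed the minimum level and had values above 0 in these libraries, of which 4 lie beyond the axes. *her2*, *hey1* and *hey2* lie at upper left, *her6* and *her9* at the left near 0 on the y axis, and *her8a* above 0 with no shift on the x axis.

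Set side by side, the NICD and DBZ comparisons, which share no control library, divided the 6 genes into 3 kinds. *her2*, *hey1* and *hey2* were higher with NICD and lower with DBZ than both of their controls, 3 of 6 genes, against 0.588% of all genes. *her6* and *her9* were lower with DBZ only, and *her8a* higher with NICD from both controls and not lower with DBZ from both. The difference between these kinds could not be tested without replicates.

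Other genes of the Notch pathway were also examined. Of 48 listed Notch pathway genes outside the family, 36 passed the minimum level. With NICD 10 of these 36 were higher than both controls, against 8.11% of all genes. This count holds *notch1a*, whose reads cannot be told apart from those of the transgene. Of the 36, 1 was lower than both controls, and 7.22% of all genes were lower than *hsp70I*:Gal4 controls alone. The 10 included the ligand *jag1b*, with 52.6 RPKM against 22.9 and 27.8 RPKM in the controls, the receptor *notch3*, with 32.1 RPKM against 7.34 and 10.3 RPKM, and the feedback inhibitor *nrarpa*, with 225 RPKM against 63.6 and 66.9 RPKM. The others were *dlc*, *dld*, *notch1a*, *psen2*, *adam10a*, *nrarpb* and *dtx1*, and the lower gene was the endothelial ligand *dll4*. With DBZ 5 of the 36 were lower than both controls, against 3.87% of all genes, namely *dlc*, *jag1b*, *notch3*, *notch1a* and *nrarpb*. The coactivator gene *maml3* was higher than both controls, and 14% of all genes were higher than wild types alone. *jag1b* had 7.26 RPKM with DBZ, against 19.3 RPKM in wild types and 18.9 RPKM in siblings.

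In mutants of the ligand gene *jag1b* the differences were smaller, and they depended on the control. *her2* and *hey2* were at least 1.5-fold lower in *jag1b* mutants than in their siblings, 2 of 6 genes, against 3.55% of all genes, and none was higher, against 2.03% of all genes. *her2* had 12.6 RPKM in mutants, against 34.2 RPKM in siblings, and was 2.71-fold lower (2.43 to 3.03). *hey2* had 3.04 RPKM in mutants, against 7.73 RPKM in siblings, and was 2.54-fold lower (2.20 to 2.95).

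Against wild types, the same mutant library gave another picture. *her2* was at 0.933 of wild types (0.820 to 1.06) and *hey2* at 0.766 (0.649 to 0.904), and no member was 1.5-fold lower than both controls, against 2% of all genes. *her9* had 145 RPKM in mutants, against 189 RPKM in siblings and 89.7 RPKM in wild types, and was 1.61-fold higher than in wild types. *her6*, with 261 RPKM in mutants, against 385 RPKM in siblings and 180 RPKM in wild types, and *her8a*, with 3.25 RPKM, against 4.42 and 2.75 RPKM, also lay between the controls. The median ratio of the 6 genes was 0.706 against siblings and 1.05 against wild types, with all genes at 0.976 and 0.903.

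*her2*, *hey1* and *hey2* were below both controls in *jag1b* mutants, none of them by 1.5-fold from both. *hey1* had 76.7 RPKM in mutants, against 104 RPKM in siblings and 97.8 RPKM in wild types, ratios of 0.737 (0.720 to 0.755) and 0.784 (0.766 to 0.804), but *hsp70I*:Gal4 controls were lower still at 66.8 RPKM. *her2* and *hey2* were below all 4 controls, but the lowest control was only 1.07-fold above *her2* and 1.30-fold above *hey2*. No member was 1.5-fold below all 4, against 1.18% of all genes. Of the 36 pathway genes only *jag1b* itself and *dlc* were lower in mutants than in both controls, against 2% of all genes. *dlc* was at 0.307 RPKM, against 0.976 and 0.798 RPKM.

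Markers of other cells also differed in *jag1b* mutants. Of the 4 epidermal markers *krt4* and *cyt1l* were lower than in both controls, and the list summed to 6.43 RPKM in mutants, against 65.9 RPKM in siblings and 23.5 RPKM in wild types. *egfl7* of the endothelial markers, *mfap4* of the macrophage and neutrophil markers and 1 entry of the globin gene *hbbe1.1* were also lower than in both controls, and no arch crest, otic, muscle or neuron and glia marker was called from both. The part of these differences in the *her* and *hey* values was not tested.

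**Figure D3:**
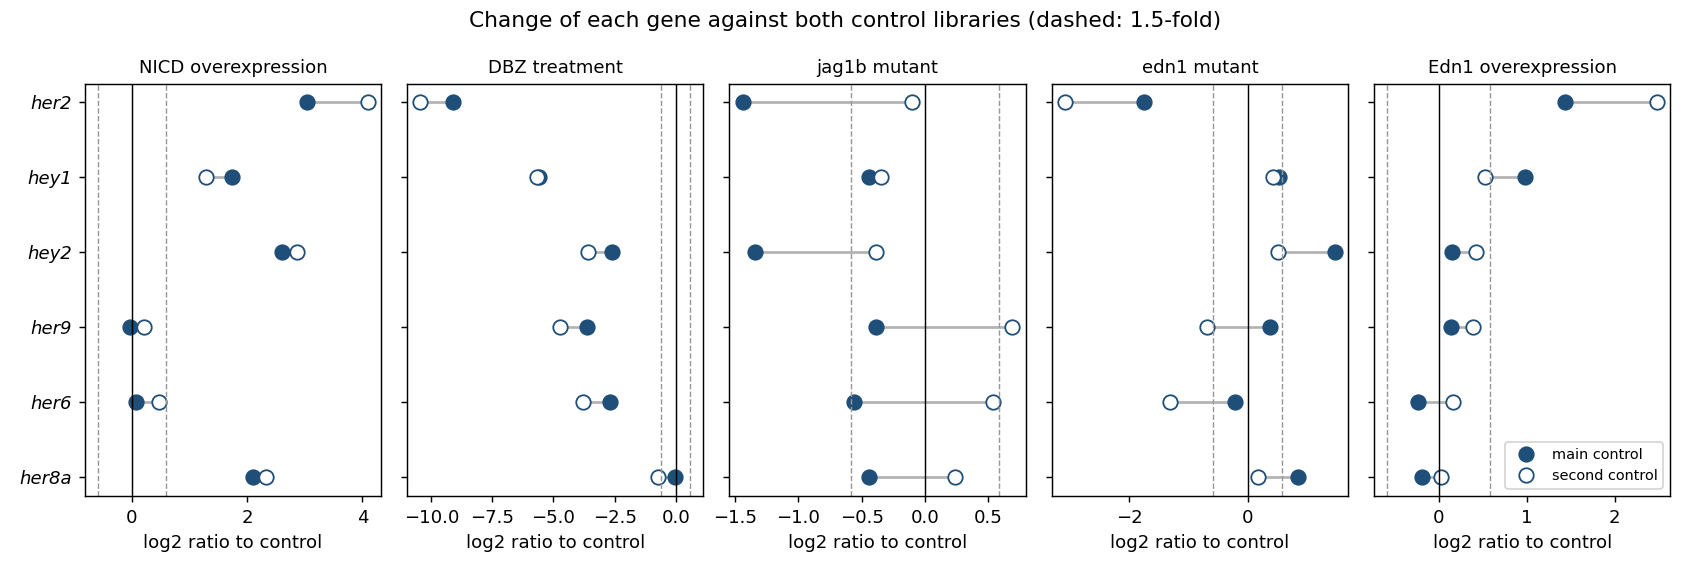
Log2 ratio of RPKM of each gene in the 5 perturbations, filled for the main control and open for the second, with 1.5-fold as dashed lines; the x axis differs between panels. With DBZ and NICD both controls place the genes on the same side of 1.5-fold, *her8a* with DBZ excepted, in *jag1b* mutants only the filled points of *her2* and *hey2* pass 1.5-fold on the lower side, and *her2* passes it on opposite sides in *edn1* mutants and with Edn1 overexpression.

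With loss and gain of Edn1, *her2* differed in opposite directions. In *edn1* mutants *her2* had 4.03 RPKM, against 13.5 RPKM in wild types and 34.2 RPKM in *jag1b* siblings, and was 3.35-fold (2.72 to 4.16) and 8.49-fold lower. With Edn1 overexpression it had 115 RPKM, against 42.6 RPKM in *hsp70I*:Gal4 controls and 20.6 RPKM in *UAS*:Edn1 controls, and was 2.70-fold (2.56 to 2.84) and 5.59-fold (5.14 to 6.08) higher. *her2* was thus at least 1.5-fold below all 4 controls in mutants, against 5.46% of all genes, and at least 1.5-fold above all 4 with overexpression, against 0.763%. No other member was, and 0.404% of all genes were lower in *edn1* mutants and higher with Edn1 overexpression than both of their controls. These calls use the wild-type and *hsp70I*:Gal4 libraries that also serve for DBZ and NICD.

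The level of *her2* in *edn1* mutants was lower than in *fli1a*-only cells, at 8.44 RPKM, and *sox10*-only cells, at 51.8 RPKM. Its level with Edn1 overexpression was 13.6-fold and 2.22-fold above these populations. Both populations came from wild types, and such cells of *edn1* mutants or with Edn1 overexpression were not sequenced. In *edn1* mutants 3 of the 7 arch crest markers (*barx1*, *hand2* and *dlx5a*) were lower than in both controls, and the list summed to 573 RPKM, against 569 RPKM in wild types and 740 RPKM in siblings. All 4 erythroid markers were lower than in both controls, with *alas2* at 0, and the list summed to 6.19 RPKM in mutants, against 81.8 and 211 RPKM. Of the 8 endothelial markers *kdrl* was higher than in both controls and *tal1*, at 0 in mutants, was lower, and the list summed to 36.1 RPKM in mutants, against 21.2 and 16.9 RPKM. Of the 5 muscle markers *mylpfa* and *acta1b* were lower, with a sum of 85.0 RPKM, against 359 and 107 RPKM. The otic markers *stm* and *otomp*, the macrophage marker *mfap4*, the neural marker *sox3* and the epidermal marker *epcam* were higher, *foxd3* and *cyt1l* were lower, and *sox10* stood at 5.05 RPKM in mutants, against 3.12 and 12.2 RPKM. Their part in the *her2* difference was not tested.

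In *edn1* mutants *her2* was the 1 member at least 1.5-fold lower than both controls, while *her6* and *her9* were so against siblings only. *her8a* and *hey2* were at least 1.5-fold higher than in wild types, 2 of 6 genes, against 24.6% of all genes, and *her2* was the 1 gene lower, against 10.6% of all genes, or 6.68% with both controls. *hey2* had 10.999 RPKM in mutants, against 3.97 RPKM in wild types and 7.73 RPKM in siblings, and was 2.77-fold (2.44 to 3.16) and 1.42-fold higher. *her8a* had 4.97 RPKM, against 2.75 and 4.42 RPKM, and was 1.81-fold and 1.12-fold higher. Neither passed 1.5-fold from both controls, which 17.4% of all genes did.

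*hey1* had 141 RPKM in *edn1* mutants, above all 4 controls, and was 1.44-fold (1.41 to 1.47) and 1.35-fold higher than in wild types and siblings. *her6* had 156 RPKM in mutants, against 180 and 385 RPKM, and was below all 4 controls by a small margin. *her9*, at 117 RPKM, lay between wild types and siblings. The median ratio of all genes in *edn1* mutants to wild types was itself 1.17, and this library had the largest rescaling divisor of the series, at 1.24. After division of each library by its median ratio to the series, *her2* was at 0.250 of wild types, *hey2* at 2.32-fold and *hey1* at 1.21-fold.

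With Edn1 overexpression *her2* and *hey1* were at least 1.5-fold higher than in *hsp70I*:Gal4 controls, 2 of 6 genes, against 5.01% of all genes, and no member was lower, against 7.6% of all genes. Only *her2* was higher than in both controls, where the share of all genes was 1.19%. *hey1* had 132 RPKM with Edn1 overexpression, against 66.8 RPKM in *hsp70I*:Gal4 controls and 91.7 RPKM in *UAS*:Edn1 controls, and was 1.98-fold (1.93 to 2.02) and 1.44-fold higher. *hey1* was therefore above all 4 controls both in *edn1* mutants and with Edn1 overexpression. So was *hey2*, at 10.5 RPKM with overexpression, against 9.41 and 7.78 RPKM, although it differed from these controls by less than 1.5-fold. *hey2*, *her6*, *her9* and *her8a* were at 0.846 to 1.34 times their level in either heat-shocked control. Markers of other cells differed here too. Of the 5 macrophage and neutrophil markers 4 (*spi1b*, *mpx*, *coro1a* and *lyz*) were lower with Edn1 overexpression than in both controls, and the list summed to 7.45 RPKM, against 44.2 and 15.5 RPKM. Of the erythroid markers *alas2*, *hbae3* and 1 entry of *hbbe1.1*, and of the endothelial markers *dll4* and *egfl7*, were lower than in both controls, with sums of 72.8 RPKM, against 873 and 120 RPKM, and of 9.67 RPKM, against 16.8 and 17.4 RPKM. Their part in the *her2* and *hey1* differences was not tested. Of the 36 pathway genes, *jag2b* was higher in *edn1* mutants than in both controls, against 17.4% of all genes. *dlc*, *dld* and *maml3* were lower, against 6.68% of all genes. *dll4* was the 1 pathway gene lower than both controls with Edn1 overexpression, and 7.6% of all genes were lower than *hsp70I*:Gal4 controls alone.

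Over wild-type stages, which ask how these genes change as arch NCCs move toward differentiation, *her2* and *her9* were lower at each later stage. *her2* had 165 RPKM at 20 hpf, 87.2 RPKM at 28 hpf and 13.5 RPKM at 36 hpf. *her9* had 401 RPKM at 20 hpf, 266 RPKM at 28 hpf and 89.7 RPKM at 36 hpf. *her2* was 1.89-fold (1.81 to 1.97) and *her9* 1.51-fold lower at 28 than at 20 hpf, 2 of 6 genes, against 10.7% of all genes, and the second value is at the limit of 1.5-fold.

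*her6* took another course, with 195 RPKM at 20 hpf, 309 RPKM at 28 hpf and 180 RPKM at 36 hpf. It was the 1 gene at least 1.5-fold higher at 28 than at 20 hpf, by 1.59-fold, against 19.9% of all genes. *hey1* had 86.7, 112 and 97.8 RPKM at 20, 28 and 36 hpf and varied least. *hey2*, with 5.19, 7.55 and 3.97 RPKM, and *her8a*, with 5.23, 6.28 and 2.75 RPKM, were highest at 28 hpf. *her9* was the most abundant of the 7 genes at 20 hpf, with 46.8% of their summed RPKM, and *her6* from 28 hpf on.

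At 36 hpf 5 of the 6 were below their 28 hpf level by 1.5-fold or more in the wild-type library, against 23.9% of all genes, and none was higher, against 14.8%, but this rested on the library in which they were low. With *jag1b* siblings as the 36 hpf population only *her2* was lower, by 2.55-fold (2.39 to 2.71), in place of 6.45-fold (5.88 to 7.08) in wild types. *her2* was thus the 1 gene lower with both 36 hpf libraries, against 13% of all genes. *her6* was then 1.24-fold higher at 36 than at 28 hpf, and *hey2* was at 1.02-fold. Summed neuron and glia markers were 45.0 RPKM at 20 hpf, 80.01 RPKM at 28 hpf and 20.1 RPKM at 36 hpf, and *sox10* had 70.5, 25.9 and 3.12 RPKM at the 3 stages, so that *sox10* was lower at each later stage, as *her2* was. The erythroid markers summed to 370, 2114 and 81.8 RPKM and the macrophage and neutrophil markers to 239, 806 and 23.6 RPKM at these stages. The muscle markers rose instead, with sums of 7.09, 17.6 and 359 RPKM. In *jag1b* siblings at 36 hpf *sox10* had 12.2 RPKM. There the neuron and glia markers summed to 32.7 RPKM, the erythroid to 211 RPKM, the macrophage and neutrophil to 95.0 RPKM and the muscle markers to 107 RPKM. Their part in the stage course was not tested.

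**Figure D4:**
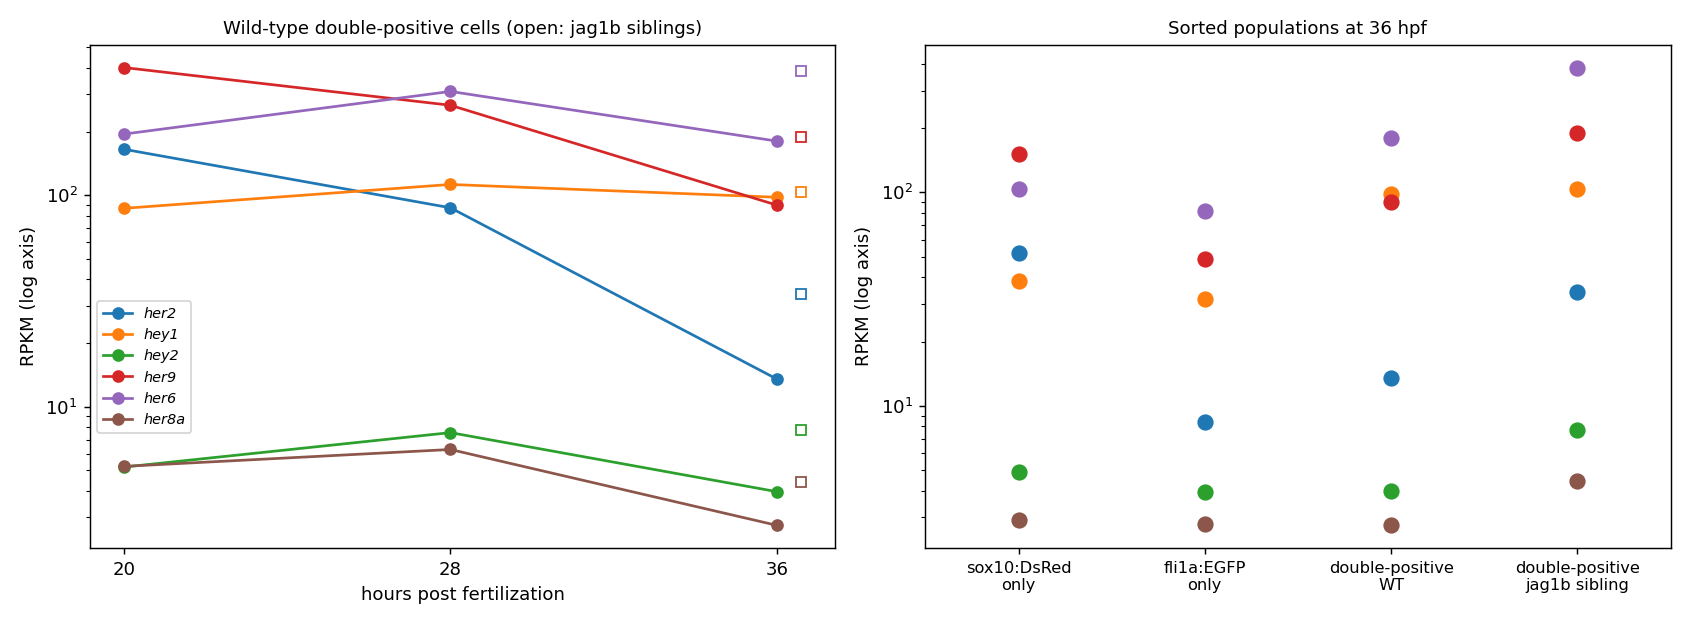
RPKM (log axis) of the 6 genes, in the same colours in both panels: on the left, wild-type double-positive cells at 20, 28 and 36 hpf, with *jag1b* siblings at 36 hpf as open squares, and on the right the sorted populations at 36 hpf. *her2* and *her9* are lower at each later stage, open squares lie above the wild-type points, most narrowly for *hey1*, and *hey1* and *her6* are lower in cells of either transgene alone than in both double-positive libraries.

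Among the sorted populations, *hey1* and *her6* were the members at least 1.5-fold lower in both single-positive populations than in both double-positive libraries. By the same rule 10.5% of all genes were lower than both double-positive libraries in *fli1a*-only cells, and 16.7% in *sox10*-only cells. The share of all genes that were lower in both populations was not calculated. *hey1* had 38.5 RPKM in *sox10*-only cells and 31.6 RPKM in *fli1a*-only cells, against 97.8 RPKM in double-positive cells of wild types and 104 RPKM in those of *jag1b* siblings. It was 2.54-fold (2.47 to 2.62) lower in *sox10*-only cells and 3.09-fold (2.99 to 3.19) lower in *fli1a*-only cells than in wild types. *her6* had 104 RPKM in *sox10*-only and 82.1 RPKM in *fli1a*-only cells, against 180 and 385 RPKM in the double-positive libraries. It was 1.73-fold and 2.19-fold lower than in wild types. In *sox10*-only cells 15.7% of all genes were as far or farther below wild types as *her6*, and 7.27% as *hey1*. In *fli1a*-only cells these shares were 2.98% and 0.957%.

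*her2* was higher in *sox10*-only cells and lower in *fli1a*-only cells than in arch NCCs. It had 51.8 RPKM in *sox10*-only cells, 3.83-fold (3.48 to 4.23) above wild types and 1.51-fold above siblings, and 8.44 RPKM in *fli1a*-only cells, 1.60-fold and 4.06-fold below them. *her9* had 48.8 RPKM in *fli1a*-only cells, below both double-positive libraries, whereas its 151 RPKM in *sox10*-only cells lay between them. *her8a* and *hey2* in cells of either transgene alone were near wild types and below siblings.

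In *fli1a*-only cells 4 of the 6 were therefore below wild types by 1.5-fold or more, against 18.4% of all genes, and the same 4 than in both controls, against 10.5%. After rescaling by median ratios *her2* was at 0.740 of wild types and 3 of the 6 remained. No member was higher, against 9.89%. In *sox10*-only cells 2 were higher than in wild types, against 14.6% of all genes, and 2 lower, against 23.4%. With both controls *her2* stayed higher, against 11.8% of all genes, and *her6* and *hey1* lower, against 16.7%. The *sox10*-only library was rich in otic and neural RNA, with 246 RPKM over 4 otic and 789 RPKM over 7 neuron and glia markers, and the *fli1a*-only library in blood RNA, with 40304 RPKM over 4 erythroid markers.

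The members resembled each other to different degrees over the 13 libraries, on log2(RPKM + 0.1). These libraries share controls and depth is not equal, so the correlations are descriptions. Of 10702 genes with at least 3 RPKM in some library, those most like *her2* were *her15.1* and *her15.2*, with Pearson's r of 0.967 and 0.966, followed by *si:ch211-193l2.5* at 0.921; the *her15* copies are nearly identical and their reads may be divided. *her6* was most like *hey1*, at 0.894, then *mars2* at 0.869 and *her9* at 0.863. For *her9* the closest genes were *ttc4* at 0.894, *her2* at 0.889 and *tmem69* at 0.881.

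*hey1* was most like *her6* at 0.894, *her9* at 0.862 and *her15.2* at 0.841. *hey2* was most like *kcnj8*, a potassium channel gene, at 0.886, then a *her4.2* copy at 0.854 and *COBLL1 (2 of 2)* at 0.846. For *her8a* the nearest genes were *inpp5b* at 0.930, *map3k1* at 0.889 and *sfrp5*, of a family of secreted Wnt inhibitors, at 0.864. Among the 6 members the lowest correlation was that of *her8a* with *her9*, at 0.421, and the highest that of *her6* with *hey1*. By Spearman correlation the 3 nearest genes of *her6*, *her9*, *hey1* and *hey2* held no family member, so that this part of their likeness depended on the measure. By this measure *her15.1* and *her15.2* were also the nearest to *her2*, at 0.956 each. Pearson's r over the 11 double-positive libraries alone was highest for *her6* with *her9*, at 0.899, and 0.897 for *her6* with *hey1*. There *her15.1* was nearest to *her2* and *her6*, *ngrn* to *her9*, a *her4.2* copy to *hey1*, *sox3* to *hey2* and *fabp2* to *her8a*.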

How the data were processed

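Reads of the 13 sorted populations were, by the authors, trimmed to a Phred quality of 20 and a minimum length of 25 bases, aligned with TopHat 2 to GRCz10 and assigned to genes of Ensembl 80 by expectation-maximization in Partek. The deposited values are RPKM, per gene and library, and every column was mapped to a library. RPKM was used as deposited, ratios were taken without a pseudocount, and 1.5-fold from a control counted as changed. Relative depth and whole reads were recovered from RPKM steps (tolerance 0.1 read; 5 of 7 genes), with Clopper-Pearson intervals. The members and gene lists were chosen with earlier results of these data known; named genes were the members, their 3 most alike genes, targeted genes and pathway genes changed from both controls. *heyl*, below the minimum level, was left out of counts after its reads were seen. Alternatives were another control library, a pseudocount of 0.1, rescaling by median ratios over 5406 genes, 2-fold, other minimum levels, Spearman correlation and double-positive libraries alone. Scripts were tested on simulated data. Python 3.11.15, numpy 2.4.6, pandas 2.3.3, scipy 1.17.1 and matplotlib 3.10.9 were used. Coordinates and sequences are not used here.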

Additional observations from a re-analysis of the deposited data

How the results depend on the processing

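With 1 library per population the choice of control moved the counts most. With the other control, 1 gene was lower at 36 than at 28 hpf, 1 was higher and 4 lower in *sox10*-only cells, 1 was higher and 0 lower in *jag1b* mutants, 0 were higher and 3 lower in *edn1* mutants, and 1 was higher with Edn1 overexpression. Of ratios past 1.5-fold, those of *her6* (1.24) and *hey2* (1.02) at 36 over 28 hpf and of *her9* (0.797) in *sox10*-only cells crossed 1, and so did 10 ratios within 1.5-fold. At 2-fold, 0 genes were higher and 0 lower at 28 than at 20 hpf, 3 were lower at 36 than at 28 hpf, 2 were lower in *fli1a*-only cells, 1 was higher and 1 lower in *sox10*-only cells, and 1 was higher in *edn1* mutants and 1 with Edn1 overexpression. Beyond all 4 controls, a rule added after seeing the data, 0 genes were lower in *jag1b* mutants, 0 were higher in *edn1* mutants and 1 was higher with Edn1 overexpression. With *heyl* counted, also added afterwards, 1 gene was higher in *fli1a*-only cells and 1 in *jag1b* mutants, and 1 was lower with Edn1 overexpression, from 2 to 7 reads. Rescaling left 3 genes lower in *fli1a*-only cells. The counts with NICD and with DBZ stayed within 1.5 times under every alternative. Depth limits only *heyl* and *her2* with DBZ. No paired analysis was possible because each population has 1 library.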

Other observations

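The *her4* and *her15* copies, left out above, can be summed over their entries, which removes the division of reads among copies within each group. The 5 *her4* entries summed to 1405 RPKM with NICD, against 121 RPKM in *hsp70I*:Gal4 controls and 113 RPKM in *UAS*:Edn1 controls, and to 0.221 RPKM with DBZ, against 54.6 RPKM in wild types and 146 RPKM in *jag1b* siblings. In *jag1b* mutants they summed to 28.4 RPKM, which was 5.14-fold lower than in siblings and 1.92-fold lower than in wild types. They were thus lower than both controls in the mutants by 1.5-fold or more, which none of the 6 expressed members was, against 2% of all genes. The sum of the *her15* entries was too, at 41.7 RPKM, 3.34-fold lower than in siblings and 1.52-fold lower than in wild types. The second value is close to the limit of 1.5-fold. Of the *her15* entries only *her15.2*, at 14.9 RPKM, against 26.5 RPKM in wild types, was itself lower than both controls by this rule. *her15.1* had 26.8 RPKM, against 36.8 RPKM in wild types.

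The 2 *her15* entries summed to 627 RPKM with NICD, against 129 and 114 RPKM in the heat-shocked controls, and to 0.331 RPKM with DBZ, against 63.3 RPKM in wild types and 139 RPKM in siblings. Like *her2*, they were lower in *edn1* mutants, at 27.6 RPKM, against 63.3 and 139 RPKM, and higher with Edn1 overexpression, at 274 RPKM, against 129 and 114 RPKM. The *her4* sum did not share this, with 91.8 RPKM in *edn1* mutants, between the controls, and 101 RPKM with Edn1 overexpression, against 121 and 113 RPKM. The sum of *her4* was also higher in *sox10*-only cells, at 387 RPKM, by 7.09-fold from wild types and 2.65-fold from siblings. In *fli1a*-only cells, at 200 RPKM, it was 3.66-fold above double-positive cells of wild types but only 1.37-fold above those of siblings.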
